A study of Danio rerio with 6 samples.

Results

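Serotonin genes were followed in whole brains of adult zebrafish by sequencing of polyadenylated RNA. The set was chosen by symbol and held 10 of the 23678 genes of the matrix: the synthesis gene tph2, the uptake transporter genes slc6a4a and slc6a4b, the degradation gene mao, the receptor genes htr1aa, htr1ab, htr1b, htr2b and htr2cl1, and the transcription factor gene fev. Brains came from fish homozygous for C246X, a chrna3 allele made with CRISPR/Cas9, or from wild-type (WT) fish, with 3 libraries per genotype. The product of chrna3 is a subunit (alpha3) of acetylcholine receptors of the nicotinic type in neurons, and the study asked how it bears on the response to alcohol. The labels state no treatment for either group, and give no age beyond adulthood, sex, strain or hour of sampling. The labels do not say whether a library came from 1 fish or from several, so a p-value here speaks of the spread between libraries, part of which may be technical.

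In fish, as in other vertebrates, brain serotonin is made from tryptophan by a tryptophan hydroxylase and then by aromatic amino acid decarboxylase. The neurons of the hindbrain raphe use tph2, keep their identity through the factor fev (also called Pet1) and take serotonin back up through slc6a4a. Zebrafish tph2 is also expressed in the pineal organ, where serotonin is the precursor of melatonin, and fish have further serotonergic neurons in the hypothalamus that use other hydroxylase and transporter copies. Zebrafish break down serotonin and the catecholamines with a monoamine oxidase encoded by mao. The receptor genes belong to families that lower cyclic AMP (htr1) or raise intracellular calcium (htr2).

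Deposited values were estimated reads divided by 1 factor per library, called normalised reads here, and summed to 25655952 to 26794838 per library. Longer transcripts give more reads, so levels are compared between libraries and not between genes. The chrna3 transcript itself had 102, 28.1 and 55.1 normalised reads in WT replicates 1 to 3 and 59.8, 40.7 and 57.4 in those of C246X, which overlapped. Since a stop codon need not lower the RNA that carries it, these values say nothing of the genotype. Summed neuron markers ran from 239431 to 260560 normalised reads over the 6 libraries. A SNAP25 copy (ENSDARG00000020609) made up 43% of this sum, which can hide changes of single genes. A log2 fold change is the C246X mean less the WT mean of log2(value + 1), with its standard error (SE), and a gene passed at an adjusted p under 0.05 over all 23104 tested genes (limma, Benjamini-Hochberg).

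Among the 10 serotonin genes, tph2 and htr2b were lower in C246X brains and 8 did not pass in either direction. The hydroxylase transcript stood at 0.474 times its WT mean and that of htr2b, a low-abundance receptor gene, at 0.101 times. Over all tested genes 22.5% passed, 11.4% as lower and 11.1% as higher, so 2 calls among 10 genes are near that background. At an unadjusted p under 0.05 the counts were 3 lower and 1 higher, and limma-voom called 1 lower and 0 higher. The median log2 fold change of the 10 genes was −0.06, against −0.01 over all tested genes. C246X and WT libraries were fully apart in 5 of the 10 genes, beside 41.4% of all tested genes. All 10 genes were above the minimum mean value of 1.

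**Figure D1:**
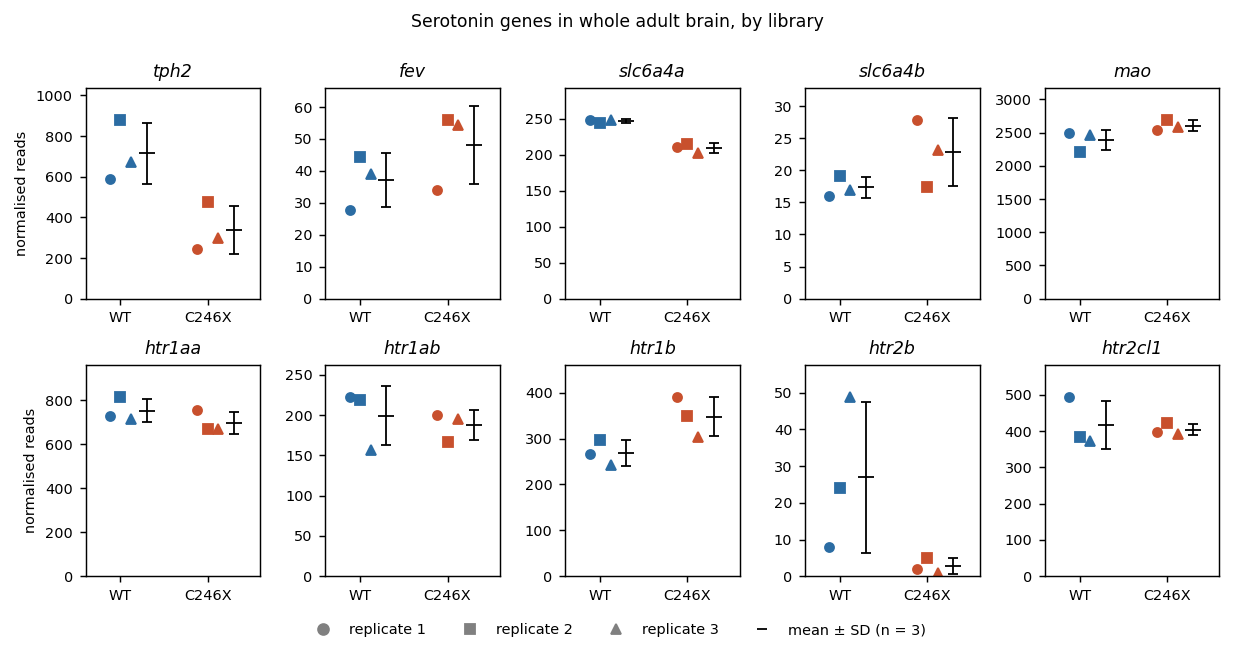
Normalised reads (vertical axis, starting at 0) of the 10 serotonin genes in each library, with WT in blue, C246X in orange, replicate numbers by symbol, and the mean ± SD of 3 libraries as black bars. The 3 C246X libraries lie below the 3 WT libraries for tph2, slc6a4a and htr2b and above them for mao and htr1b.

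The synthesis gene tph2 encodes the neuronal tryptophan hydroxylase, the rate-limiting enzyme of serotonin synthesis. It had 589, 880.3 and 675 normalised reads in WT replicates 1, 2 and 3, and 244.5, 474 and 297 in C246X replicates 1, 2 and 3. Every C246X library lay below every WT library, and in both genotypes replicate 2 was the highest and replicate 1 the lowest. It averaged 715 ± 149.5 in WT and 338 ± 120.0 in C246X (SD, n = 3 each). The log2 fold change was −1.11 (SE 0.24, 95% interval −1.67 to −0.56), and tph2 passed in limma with an adjusted p of 0.0143. It missed the threshold narrowly when 1 of 3 libraries was left out: the adjusted p was 0.0501 without WT replicate 3, 0.0518 without C246X replicate 1 and 0.0569 without C246X replicate 3, with log2 fold changes of −1.14, −0.91 and −1.05. In whole-brain RNA, fewer cells of a type and less RNA per cell cannot be told apart.

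The transcription factor gene fev, whose product marks raphe serotonin neurons, did not pass. It had 27.9, 44.2 and 39.2 normalised reads in WT and 34.0, 56.0 and 54.4 in C246X. The genotypes overlapped and the C246X mean was the higher, 48.2 ± 12.2 against 37.1 ± 8.37 (SD, n = 3). The log2 fold change was 0.36 (95% interval −0.31 to 1.03, adjusted p = 0.418 in limma). The ratio of tph2 to fev within a library, with 1 added to each value, hardly depends on the scaling between libraries. On the log2 scale this ratio was 4.35, 4.29 and 4.07 in WT and 2.81, 3.06 and 2.43 in C246X. The C246X ratios all lay below the WT ratios, with a difference of −1.47 in their means. The exact two-sided permutation p was 0.1, the smallest that 3 libraries against 3 allow (0.133 adjusted over the 4 ratios computed).

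The transporter gene slc6a4a, which encodes the serotonin reuptake carrier of raphe neurons, was the most even of the 10 genes between WT libraries. Its values were 248.9, 244.2 and 248.9 normalised reads in WT and 211, 215 and 202 in C246X. The genotypes did not overlap, yet the difference was small and did not pass (log2 fold change −0.24, 95% interval −0.47 to −0.01, adjusted p = 0.123 in limma; 0.0617 to 0.272 over the alternatives). Its spread between libraries was 1.11% of the mean in WT and 3.07% in C246X, below the 6.42% and 6.97% that read counting alone gives at this depth. For tph2 the spread was 20.9% and 35.5% of the mean, above the 3.77% and 5.49% of read counting. The log2 ratio of tph2 to slc6a4a averaged 1.51 ± 0.31 in WT and 0.63 ± 0.47 in C246X (SD, n = 3). The libraries did not overlap in this ratio, and the difference was −0.88 (exact two-sided permutation p = 0.1; 0.133 adjusted).

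The other transporter gene, slc6a4b, was read by few reads. It had 15.9, 19.1 and 16.9 normalised reads in WT and 27.9, 17.3 and 23.2 in C246X. The genotypes overlapped, and the gene did not pass (log2 fold change 0.36, 95% interval −0.34 to 1.05, adjusted p = 0.439 in limma). The log2 ratio of slc6a4a to slc6a4b averaged 3.76 ± 0.14 in WT and 3.17 ± 0.35 in C246X (SD, n = 3). Each C246X ratio lay below each WT ratio, by −0.59 in the means (exact two-sided permutation p = 0.1; 0.133 adjusted).

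The degradation gene mao had the highest read counts of the 10. Its values were 2490.2, 2209 and 2463 normalised reads in WT and 2539, 2694 and 2583 in C246X. The C246X libraries lay just above the WT libraries, and the log2 fold change of 0.13 (95% interval −0.02 to 0.28) did not pass (adjusted p = 0.194 in limma).

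Of the 5 receptor genes, htr2b was lower and the 4 others did not pass. The product of htr2b couples to calcium release and is known in mammals from blood vessels, heart valves and microglia. It had 7.97, 24.1 and 48.7 normalised reads in WT replicates 1, 2 and 3, and 2.06, 5.09 and 1.01 in the C246X libraries. The highest C246X library was close to the lowest WT library, and WT values spread widely, with an SD of 76.2% of the mean where read counting gives 19.6%. These values stand for 8, 24 and 46 reads in WT and 2, 5 and 1 in C246X. The ratio of C246X to WT reads was 0.103, with an exact 95% interval of 0.0428 to 0.212 that covers counting error only. The log2 fold change was −2.74 (SE 0.70, 95% interval −4.34 to −1.14, adjusted p = 0.0255 in limma). The call was lost in limma-voom (adjusted p = 0.0743), with no filter on low values (0.0546) and without WT replicate 2 (0.0675), WT replicate 3 (0.0851), C246X replicate 1 (0.0832) or C246X replicate 3 (0.0854). Without WT replicate 3 the log2 fold change was −2.16.

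The gene htr1b encodes a receptor that in mammals sits on serotonin axon terminals and on those of other neurons. It had 267, 297 and 241 normalised reads in WT and 390.0, 349 and 304 in C246X. Every C246X library was above every WT library, but the log2 fold change of 0.37 (95% interval 0.08 to 0.66) did not pass (adjusted p = 0.0727 in limma; 0.059 to 0.216 over the alternatives).

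The genes htr1aa and htr1ab encode copies of the 5-HT1A receptor, which in mammals is the autoreceptor on raphe cell bodies and an inhibitory receptor on their target neurons. The first had 729.8, 814 and 716 normalised reads in WT and 755, 668 and 669.9 in C246X. The second had 222, 219 and 157 in WT and 200.2, 166 and 195 in C246X. In both the genotypes overlapped and the 95% interval of the log2 fold change ran from −0.31 to 0.09 for htr1aa and from −0.46 to 0.30 for htr1ab (adjusted p = 0.389 and 0.779 in limma). The sign for htr1ab turned without WT replicate 1 or without C246X replicate 2 (0.01 in both). The log2 ratio of htr1aa to htr1ab was 1.93 ± 0.24 in WT and 1.90 ± 0.12 in C246X (SD, n = 3; exact two-sided permutation p = 1). Its sign turned without WT replicate 3 (0.09) or without C246X replicate 3 (0.03).

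The gene htr2cl1 encodes a copy of the 5-HT2C receptor, which in mammals acts in feeding and mood circuits. It had 493, 385 and 374 normalised reads in WT and 396, 422 and 393 in C246X. The genotypes overlapped, the log2 fold change was −0.04 (95% interval −0.31 to 0.24, adjusted p = 0.855 in limma), and the sign turned without WT replicate 1 (0.09).

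A wider list of serotonin genes, the 10 included, placed these values among the rest of the pathway. Names in capitals below are human-style symbols of the gene-name table, with the Ensembl identifier where several zebrafish genes share it. Of 64 tested genes 10 were lower and 0 higher in C246X, beside 11.4% lower and 11.1% higher over all tested genes, and the median log2 fold change was −0.07. These 2 shares are also the background for each count by role or cell marker below. At an unadjusted p under 0.05 the counts were 15 lower and 4 higher, and limma-voom called 9 lower and 0 higher. Genes called lower numbered 6 without WT replicate 2 or 3, 4 without C246X replicate 1 and 2 without C246X replicate 3. Without WT replicate 1, htr7c (0.66) and SLC29A4 (ENSDARG00000059690, 0.30) were called higher, as was htr2cl2 (1.02) with no filter.

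**Figure D2:**
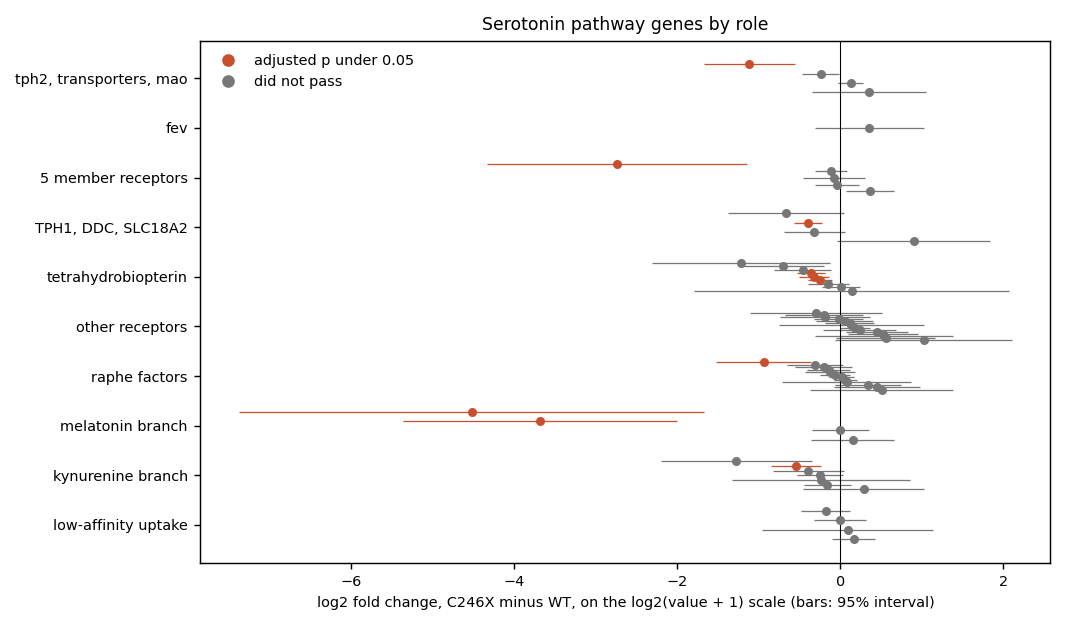
Log2 fold changes (C246X less WT, of log2(value + 1)) of the 64 tested serotonin pathway genes by role, each point 1 gene with its 95% interval, orange where the adjusted p was under 0.05. The 10 orange points all lie left of 0, with aanat2, ASMT and htr2b farthest, while the receptor genes other than htr2b are grey and lie on both sides of 0.

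Other genes of serotonin synthesis and storage had log2 fold changes closer to 0 than tph2, a difference that was not tested. DDC, the decarboxylase that makes serotonin and dopamine, had 662, 627 and 628 normalised reads in WT and 479, 506 and 473 in C246X. Every C246X library was below every WT library, and DDC fell by 0.39 on the log2 scale (SE 0.07, adjusted p = 0.00757 in limma). The vesicular monoamine transporter gene SLC18A2 averaged 113 normalised reads in WT (SD 12.2) and 90.8 in C246X (SD 7.75) and missed the threshold (adjusted p = 0.2). A copy of the hydroxylase gene TPH1 (ENSDARG00000029432) had 328, 551 and 338 normalised reads in WT and 183, 403 and 206 in C246X. The genotypes overlapped because C246X replicate 2 was above 2 WT libraries, and the log2 fold change of −0.67 did not pass (adjusted p = 0.164). This copy was called lower with the replicate number as a block (0.0124) and without C246X replicate 2 (log2 fold change −1.02, adjusted p = 0.0342 in limma). The other TPH1 copy (ENSDARG00000036082) had 16.9, 11.1 and 6.35 in WT and 23.7, 23.4 and 16.1 in C246X, and did not pass either (log2 fold change 0.90, adjusted p = 0.152 in limma).

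Genes for tetrahydrobiopterin, the cofactor of the tryptophan, tyrosine and phenylalanine hydroxylases, had 3 of 9 tested members lower and 0 higher. Beside them, 11.4% of all tested genes were lower. The counts were 6 and 0 at an unadjusted p under 0.05 and 3 and 0 in limma-voom. GCHFR, the feedback regulator of the first enzyme, averaged 678 ± 41.4 normalised reads in WT and 529 ± 8.04 in C246X (SD, n = 3). A copy of the sepiapterin reductase gene SPR (ENSDARG00000004406) had 638 ± 26.7 in WT and 511 ± 28.8 in C246X. A copy of the recycling enzyme gene QDPR (ENSDARG00000040190) had 1078 ± 32.1 in WT and 909.9 ± 31.4 in C246X. The 3 falls were 0.35, 0.32 and 0.24 on the log2 scale (adjusted p = 0.0134, 0.0227 and 0.0279 in limma). GCHFR did not pass without C246X replicate 3 (0.0524). The SPR copy did not pass without WT replicate 2 (0.0559), C246X replicate 2 (0.0848) or C246X replicate 3 (0.0595), nor with the replicate number as a block (0.0513). The QDPR copy did not pass without WT replicate 3 (0.0784) or without C246X replicates 1 (0.0869), 2 (0.0996) or 3 (0.0549). GCH1, the first enzyme of the pathway, had 689.6, 770.6 and 750.0 normalised reads in WT and 433, 679 and 518 in C246X, and did not pass (log2 fold change −0.46, adjusted p = 0.061). GCH1 was called lower with the replicate number as a block (0.0318) and without C246X replicate 2 (log2 fold change −0.64, adjusted p = 0.0139 in limma). The cofactor genes gch2 and PTS, which did not pass, were also called lower, gch2 with upper-quartile scaling (0.0482), total-count scaling (0.0484) or a minimum of 1 CPM in 3 libraries (0.043) and PTS without WT replicate 3 (0.0467). The C246X libraries of GCH1 had the same order as those of tph2, replicate 2 highest and replicate 1 lowest.

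Of 14 tested receptor genes outside the 10, 0 passed in limma or limma-voom, and 3 were higher and 0 lower at an unadjusted p under 0.05. Over all 19 receptor genes the median log2 fold change was 0.12, with 11 above 0 and 8 below. A copy of HTR2A (ENSDARG00000058165), a calcium-coupled receptor, had 65.6, 72.0 and 68.7 normalised reads in WT and 101.5, 86.2 and 96.4 in C246X (log2 fold change 0.45, adjusted p = 0.0852 in limma). The gene htr7c, of a receptor that raises cyclic AMP, had 83.6, 58.3 and 68.8 in WT and 107, 94.7 and 99.7 in C246X (log2 fold change 0.53, adjusted p = 0.0822 in limma). Neither passed. The genotypes did not overlap in 6 of the 14 genes, these 2 among them, beside 41.4% of all tested genes.

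Transcription factors that specify or maintain raphe neurons went in both directions. In whole-brain RNA their values cannot be assigned to raphe neurons. Of 12 tested genes 1 was lower and 0 higher (the same at an unadjusted p under 0.05 and in limma-voom), with a median of −0.02. That count is near the 11.4% lower over all tested genes. The lower gene was a copy of INSM1 (ENSDARG00000091756), a zinc-finger factor of neuroendocrine and newborn neurons, with 1555, 3149 and 1933 normalised reads in WT and 846, 1225 and 1291 in C246X (log2 fold change −0.94, adjusted p = 0.0327 in limma). It did not pass without WT replicate 2 (0.053) or 3 (0.0798), without C246X replicate 1 (0.116), 2 (0.0704) or 3 (0.0599), or with no filter (0.0833). A copy of LMX1B (ENSDARG00000068365), needed for serotonin neurons in mice and fish, had 253, 159.8 and 245.7 in WT and 271, 274 and 274 in C246X. GATA3 had 2832, 2649 and 2531 in WT and 2726, 2899 and 2748 in C246X. Neither passed (adjusted p = 0.2 and 0.492 in limma). In WT, replicate 2 was the highest library for tph2. Among these factors it was also the highest for both INSM1 copies, en1b, both EN2 copies, ascl1a and GATA2. It was the lowest for both LMX1B copies and FOXA2, and the middle for GATA3 and nkx2.2b.

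The melatonin branch, which uses serotonin as its substrate in the pineal organ, had 2 of 4 genes lower and 0 higher (the same at an unadjusted p under 0.05 and in limma-voom). The share lower over all tested genes was 11.4%. The gene aanat2, the pineal enzyme that acetylates serotonin, had 329, 804 and 325 normalised reads in WT and 13.4, 121 and 22.2 in C246X. ASMT, which carries out the last step, had 827, 2517 and 1142 in WT and 29.9, 573 and 10.1 in C246X. Replicate 2 was again the highest in each genotype for both genes, as it was for tph2. The log2 fold changes were −3.68 for aanat2 and −4.52 for ASMT (adjusted p = 0.01 and 0.0341 in limma). ASMT did not pass without WT replicates 1 (0.0607), 2 (0.0965) or 3 (0.0964), without C246X replicates 1 (0.123) or 3 (0.0972), or with no filter (0.0889). The other genes of this branch, AANAT and asmt2, had log2 fold changes of 0.15 and 0.00 and did not pass (adjusted p = 0.663 and 0.995 in limma).

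**Figure D3:**
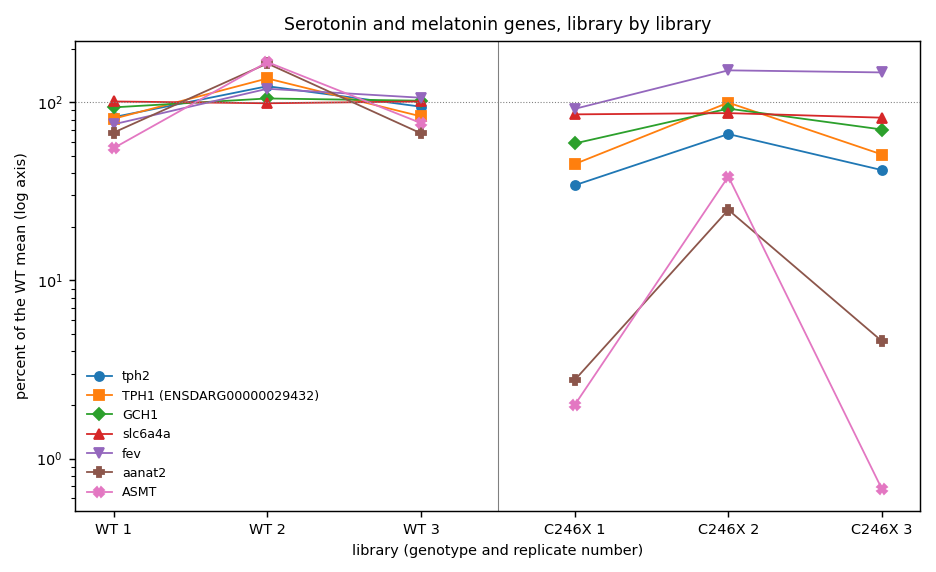
Levels of tph2, a TPH1 copy, GCH1, slc6a4a, fev, aanat2 and ASMT in each library as a percentage of the WT mean, on a log axis. Lines join libraries of 1 genotype only to guide the eye; tph2 reaches 123% in WT replicate 2 and 66.3% in C246X replicate 2, where aanat2 reaches 165% and 24.9%, while slc6a4a stays between 98.7% and 101% in WT and between 81.9% and 86.9% in C246X.

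Taken as a sum, pineal and retinal photoreceptor markers moved in the same libraries. Of 26 tested markers 16 were lower and 0 higher (20 and 0 at an unadjusted p under 0.05; 13 and 0 in limma-voom). That count changed when 1 library was left out. It was 2 without WT replicate 2, WT replicate 3 or C246X replicate 1, and 3 without C246X replicate 3. It was 11 without WT replicate 1 and 20 without C246X replicate 2. The summed level of the 26 markers ran from 11365 to 35522 normalised reads in WT and from 489 to 8834 in C246X. Replicate 2 was the highest in each genotype. The 2 markers with the smallest p were aanat2 and a GRK7 copy (ENSDARG00000055534), a cone opsin kinase gene, with log2 fold changes of −3.68 and −3.85. The parietopsin gene was listed at 0 in C246X replicates 1 and 3, and rcvrna and grk1b in C246X replicate 3. Of the 26 markers, 23 had log2 fold changes below 0 and 3 above. The largest above 0 was a GUCA1A copy (ENSDARG00000101567, 1.28), which did not pass (adjusted p = 0.142 in limma). It had 4.98, 11.05 and 16.95 normalised reads in WT and 12.4, 44.8 and 29.2 in C246X. Also above 0 were a GNGT2 copy (ENSDARG00000103543, 0.22), listed at 0 in WT replicate 2 and C246X replicate 1, and the other GUCA1A copy (ENSDARG00000100747, 0.38), listed at 0 in WT replicate 1. The part of photoreceptor markers in the tph2 result was not tested. Relative to the WT mean, C246X replicate 2 held 41% of the summed photoreceptor markers and 66.3% of tph2, and C246X replicates 1 and 3 held 3.33% and 2.27% of the markers and 34.2% and 41.6% of tph2.

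The genes with the pattern most like that of tph2 were ranked among 11618 genes with a mean of at least 50 and an unshared symbol. By Pearson's r over the 6 libraries, which share the genotype difference, these were arl3l2 (0.998), BICRAL (0.996), aanat2 (0.994), SLC24A1 (0.993) and ppdpfa (0.993). By deviations from the genotype means they were MOSPD1 (0.998), POLR3D (0.998), RABEPK (0.996), arl3l2 (0.994) and rexo1 (0.993). With 6 libraries and so many genes, values this high are a description only. On the deviations, the r with tph2 was 0.98 for aanat2, 0.98 for the TPH1 copy ENSDARG00000029432 and 0.94 for GCH1. It was 0.84 for ASMT, 0.80 for fev, 0.55 for htr2b, 0.22 for slc6a4a and −0.61 for slc6a4b.

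Raphe neurons lie in the hindbrain, so hindbrain and cord markers were read beside tph2 and fev. Of 19 such markers 0 passed in either direction in limma or limma-voom (1 higher and 0 lower at an unadjusted p under 0.05). Their summed level ran from 5990.0 to 9918 normalised reads in WT and from 9091 to 10679 in C246X, lowest in WT replicate 2. Smallest in p on either side of 0 were HOXD3 and HOXB8 (log2 fold changes 0.77 and 3.30) and hoxa2b (−0.12), and none of these passed. In WT replicate 2 HOXB8 had 1 normalised read against 205 and 137 in WT replicates 1 and 3, and a HOXC6 copy (ENSDARG00000101954) was listed at 0. WT replicate 2 held the highest tph2 and fev values of the WT libraries, and without it tph2 passed with a log2 fold change of −0.95 (adjusted p = 0.0434 in limma). The part of hindbrain content in the tph2 and fev values was not tested.

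Microglia, meningeal and vessel markers were read beside htr2b. Of 15 microglia and macrophage markers 14 were lower and 0 higher (the same at an unadjusted p under 0.05 and in limma-voom). Their sum ran from 20949.8 to 22310.0 normalised reads in WT and from 9868 to 13011 in C246X, and none was at 0. The 2 copies of the macrophage perforin gene MPEG1 had the smallest p, with log2 fold changes of −1.30 (ENSDARG00000055290) and −4.22 (ENSDARG00000043093). Of 11 meningeal and fibroblast markers 5 were lower and 0 higher (7 and 0 at an unadjusted p under 0.05; 5 and 0 in limma-voom), with sums of 6807 to 7587 in WT and 4006 to 4915 in C246X. The collagen genes COL1A1 and COL1A2 had log2 fold changes of −1.36 and −0.80. Of 17 endothelium and mural cell markers 4 were lower and 0 higher (5 and 1 at an unadjusted p under 0.05; 4 and 0 in limma-voom; 2 lower without C246X replicate 1), with sums of 9762 to 11692 in WT and 9103 to 10794 in C246X. The pericyte receptor gene PDGFRB and a TAGLN copy (ENSDARG00000045408) of smooth muscle had log2 fold changes of −0.78 and −0.81. Also called lower were acta2 (−0.45) and a MYH11 copy (ENSDARG00000009782, −0.30), likewise mural cell genes. None of the endothelial markers passed (kdrl, KDR, cdh5, TIE1, tek, the CLDN5 copies, flt1 and EGFL7). Of the 17 markers, 11 had log2 fold changes below 0 and 6 above. Smallest in p above 0 were ABCC9 (0.29) and KDR (0.17), and the other TAGLN copy (ENSDARG00000033466) was at 0.19. These 3 genes did not pass (adjusted p = 0.136, 0.314 and 0.389 in limma). Within WT, htr2b ran from 29.6% to 181% of its mean and the microglia sum from 96.3% to 103%. That sum hides single genes, since apoeb alone made up 37.8% of it. P2RY12 (30.9, 35.2 and 54.0 normalised reads in WT replicates 1, 2 and 3) rose in the order of htr2b. So did the MPEG1 copy ENSDARG00000043093 (68.7, 112.5 and 125), the other MPEG1 copy, LCP1, CORO1A and csf1rb. The rest of the 15 markers had other orders, among them havcr1 (214, 178 and 188.5) and apoeb (7457, 7850 and 6444). In C246X replicates 1, 2 and 3, P2RY12 had 5.16, 8.15 and 7.05 normalised reads and the MPEG1 copy ENSDARG00000043093 had 6.19, 2.04 and 6.04. There htr2b had 2, 5 and 1 reads, too few to compare its order with theirs. The part of these cells in the htr2b result was not tested. Among markers of other cells, 3 of 11 habenula and interpeduncular genes were higher and 0 lower (7 and 0 at an unadjusted p under 0.05; 3 and 0 in limma-voom), but 0 passed without WT replicate 3 or any 1 of the C246X libraries and 1 without WT replicate 2. Of 11 radial glia genes 1 was higher and 4 lower, with 2 lower without C246X replicate 2 or 3. Of 6 blood cell genes 0 passed (0 higher and 1 lower at an unadjusted p under 0.05; 0 in limma-voom), and of 11 neuron genes 1 was lower (0 without WT replicate 3 or C246X replicate 1 or 2).

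**Figure D4:**
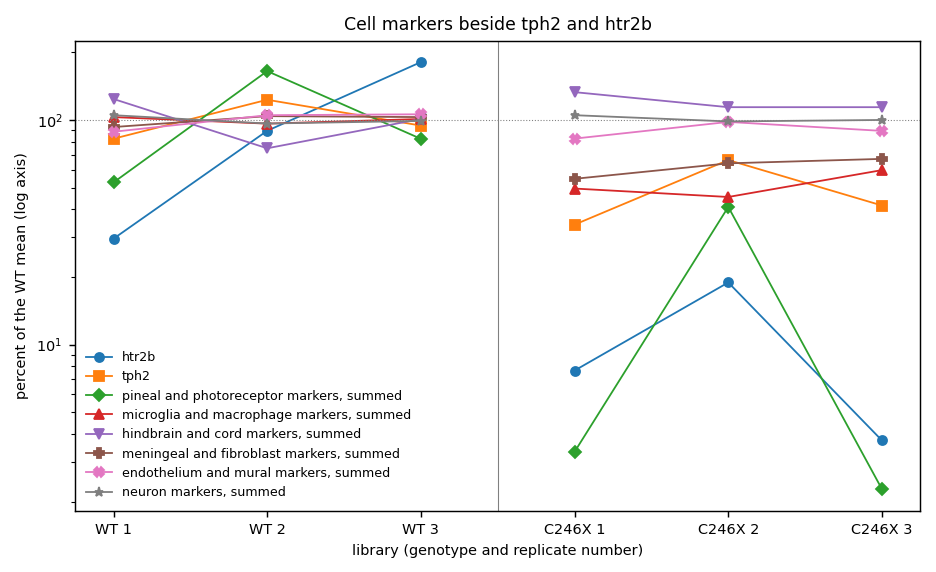
Levels of htr2b and tph2 and summed levels of 6 marker lists in each library, as a percentage of the WT mean on a log axis, with lines only to guide the eye. In C246X photoreceptor markers are at 2.27% to 41% and microglia markers at 45.4% to 59.8%, neuron markers stay between 96.4% and 105% in all 6 libraries, and htr2b differs more between WT libraries than any of the marker sums does.

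Marker genes of dopamine and noradrenaline neurons, of which DDC and SLC18A2 also serve serotonin neurons, showed both directions. Among 10 dopamine and noradrenaline markers 1 was higher and 2 lower, beside 11.1% higher and 11.4% lower over all tested genes. The counts were 2 and 2 at an unadjusted p under 0.05 and 1 and 2 in limma-voom. TH, a hydroxylase gene of dopamine synthesis, had 248, 188 and 209.7 normalised reads in WT and 347, 445 and 389.8 in C246X (log2 fold change 0.87, adjusted p = 0.00405 in limma). The lower ones were DDC and the noradrenaline transporter gene SLC6A2, with 722, 913 and 695 in WT and 472, 584 and 375 in C246X (log2 fold change −0.71, adjusted p = 0.0196). SLC6A2 did not pass without WT replicate 2 (0.0548), without C246X replicate 1 (0.067) or 3 (0.0562), or with no filter (0.0519). Every C246X library was thus above every WT library for TH and below every WT library for tph2. The genotypes were fully apart in 41.4% of all tested genes. The other tyrosine hydroxylase gene, th2, had 62.7, 76.4 and 57.2 normalised reads in WT and 60.9, 103.9 and 76.6 in C246X. For th2 the genotypes overlapped and it did not pass (log2 fold change 0.27, adjusted p = 0.461 in limma).

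Tryptophan that is not turned into serotonin mostly enters the kynurenine branch. Of 7 tested genes there 1 was lower and 0 higher, near the 11.4% lower over all tested genes. The counts were 2 and 0 at an unadjusted p under 0.05 and 1 and 0 in limma-voom. KYAT3, a kynurenine aminotransferase gene, had 404, 309.5 and 299 normalised reads in WT and 233, 235 and 218 in C246X (log2 fold change −0.55, adjusted p = 0.0224 in limma). It did not pass without C246X replicates 1 (0.0656), 2 (0.0615) or 3 (0.0781). KMO, which commits kynurenine to the next step, had 15.9, 20.1 and 10.6 in WT and 4.13, 6.11 and 7.05 in C246X and did not pass (adjusted p = 0.0545), though KMO was called lower with no filter (0.0468) and with a pseudocount of 5 (0.0422). Of the 4 low-affinity uptake genes 0 passed in limma or limma-voom and 0 had an unadjusted p under 0.05. Those with the smallest p were the SLC29A4 copy ENSDARG00000059690 (log2 fold change 0.16) and SLC22A2 (−0.18).

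By gene order in another assembly, 2 tested genes on each side of each serotonin gene were read as a check of place. They were the nearest within 10 places that could be joined by an unshared symbol. Nearer genes without such a symbol were passed over, so some neighbours lay up to 8 places away. Of these 40 neighbours, 7 were lower and 4 higher in C246X, or 27.5%, beside 22.5% over all tested genes. Of the 4 neighbours of tph2, 2 were lower. On one side ENSDARG00000092364 did not pass (log2 fold change −0.89, adjusted p = 0.108 in limma) and ENSDARG00000069038 was lower (−0.41, adjusted p = 0.0058). On the other side tbc1d15 did not pass (log2 fold change 0.09, adjusted p = 0.424 in limma), while chtf8 beyond it was lower (−1.01, adjusted p = 0.0239). The chtf8 call was lost without WT replicate 2 (0.0697) or 3 (0.0527), without C246X replicate 1 (0.0625) or 2 (0.0732), and with the replicate number as a block (0.0513). On one side of slc6a4b, gatc was lower (log2 fold change −0.89, adjusted p = 0.00288 in limma). The interferon-induced gene isg15 beyond it fell by 5.36 on the log2 scale (adjusted p = 1.84e-06 in limma), while slc6a4b did not pass. These neighbours were named after their values were seen.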

How the data were processed

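RNA of whole brains was measured in 6 libraries, 3 WT and 3 C246X, assigned by the labels, with none left out. Paired reads of 150 bp were sequenced; the submitters' processing notes name STAR and GRCz11 and no versions. Neither labels nor file name a counter or annotation. The deposited matrix holds a signal value per gene and library. Judged by its low values, this signal is reads (partly estimated) scaled by a factor for each library: below 1000 reads, 95.0% to 95.2% of values are whole multiples of a common step within 0.03, and undoing the factors gave 24222316 to 26659957 reads per library.

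Genes with a mean of at least 1 (23104 of 23678) were fitted by genotype on log2(value + 1) with limma 3.58.1 (mean-variance trend) in R 4.3.3. The fit and the permutation test were checked on simulated or made-up values. Intervals of read counts cover counting error only. Ratios within a library, with 1 added to each value, were tested by exact permutation over 20 assignments.

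Symbols came from a gene-name table: 8 of the 10 genes matched directly, and slc6a4a and htr1ab were taken as the only genes under the human-style symbols SLC6A4 (ENSDARG00000061165) and HTR1A (ENSDARG00000057098). Of 68 symbols in the wider list 4 had no match, 65 genes were found and 64 tested. Gene order came from a table of GRCz12tu, joined by symbol, without coordinates. No sequences are shown.

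The text names all 10 genes, the wider-list genes that passed, otherwise the 2 of a list with the smallest p, the 2 markers with the smallest p in each direction, and the 5 most like tph2. Some marker values under this rule are not reported here. Of the microglia and meningeal lists only the lower side is named by this rule, and lists of habenula, blood and radial glia markers are given as counts only. Other named genes, such as SLC18A2, GCH1, LMX1B, GATA3, AANAT, asmt2, HOXB8, P2RY12, havcr1, the other TAGLN copy and isg15, were chosen after their values were seen. The genes and lists were chosen with earlier results of these data known. Alternatives were 3 scalings, 2 filters, limma-voom on recovered reads, pseudocounts of 0.1 and 5, leaving out each library, a minimum log2 change of 1 and a replicate block; leaving out a library for the marker counts was added after seeing the data. Figures used matplotlib 3.10.9.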

Additional observations from a re-analysis of the deposited data

How the results depend on the processing

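The 8 serotonin genes that did not pass stayed above the threshold under all alternatives run on them. With 2 genes lower in the main setting, 1 was lower with no filter, 1 with a minimum of 1 CPM in 3 libraries (where htr2b and slc6a4b were not tested) and 1 in limma-voom, and 0 to 2 with a library left out. Leaving out a library gave log2 fold changes of −1.38 to −0.91 for tph2 (adjusted p 0.00504 to 0.0569), −3.4 to −2.16 for htr2b, −0.24 to 0.01 for htr1ab and −0.11 to 0.09 for htr2cl1, and 0.01 for htr1ab without WT replicate 1 or C246X replicate 2. The htr2b call was also lost in limma-voom (−2.94, adjusted p = 0.0743) and with no filter (−2.74, 0.0546). The ratio of htr1aa to htr1ab ran from −0.14 to 0.09 with a library left out, 0.03 without C246X replicate 3. In the wider list, 2 to 9 genes were lower and 0 to 2 higher with a library left out, 1 was higher with no filter, and 4 were lower with a minimum log2 change of 1. Over all genes, 1394 to 2425 were higher and 1581 to 2353 lower with a library left out, and 609 and 1233 with the minimum log2 change. The cause of these shifts was not tested.

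Same-numbered libraries deviated together only weakly (r over genes 0.073, 0.048 and 0.055), though each library correlated best with its own number. The labels do not say whether the numbers pair the samples, and these weak correlations cannot settle it. With the replicate number as a block, 2 serotonin genes and 11 of the wider list were lower and 0 higher. The block left tph2 at −1.11 (adjusted p = 0.00162) and htr2b at −2.74 (0.0331), moved the counts over all genes to 2285 higher and 2479 lower, and ended the calls of the SPR copy and of chtf8, while GCH1 (0.0318) and the TPH1 copy ENSDARG00000029432 (0.0124) were called lower under it. The 3 scalings changed no call among the 10 genes. Depth limits htr2b, slc6a4b and fev, at 1 to 46 reads for htr2b.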
